A study of Saccharomyces cerevisiae with 3 samples.

Results

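The phosphate regulon of Saccharomyces cerevisiae was followed through 10 of its genes: the phosphatase genes PHO5, PHO11, PHO12, PHO8 and PHM8, the transporter genes PHO84 and PHO89, and SPL2, VTC3 and PHM6. The array probe sets annotated with these symbols were taken, control probe sets left out, which gave 9 of 9275. PHO11 and PHO12 share 1 probe set that does not tell them apart, and each of the other 8 genes has 1 probe set of its own. Cells of the reference laboratory strain S288c had been exposed for 5 h to 15 µM tomatidine, to 7.5 µM tomatidine, or to the carrier solvent dimethylformamide (DMF) alone. DMF was thus present in all 3 conditions. Tomatidine, a steroidal alkaloid of tomato, is what is left of the glycoalkaloid tomatine once its sugars are removed. Each condition gave total RNA for 1 array, so there were no replicates and no test, and the number of arrays limits the precision of every value below.

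In yeast, the PHO pathway matches phosphate uptake and salvage to supply. When phosphate is plentiful, the cyclin and kinase pair Pho80 and Pho85 phosphorylates the transcription factor Pho4 and keeps it out of the nucleus. When phosphate is scarce, the inhibitor Pho81 stops the kinase. Pho4, often with its partner Pho2, then switches on genes for secreted and vacuolar phosphatases, phosphate transporters and the synthesis of polyphosphate. Polyphosphate is the phosphate store of the vacuole.

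Signals are given in arbitrary units after each array was divided by its median probe set. Values at or below a floor of 18.2 entered the ratios as that floor and were not taken as measurements. All 9 probe sets lay above the floor on every array. A gene is called higher or lower when the floored signals of a pair of arrays differed at least 2-fold, a rule of size that stands in for a test. As a yardstick of error, the log2 ratio was compared across probe sets reading the same gene, over 173 genes. Its pooled SD was 0.38 for 15 µM over control, 0.34 for 7.5 µM over control and 0.29 between the doses. That SD covers differences between probes, not between cultures. Bacterial and phage spike controls were 1.78-fold dimmer on the 15 µM array and 1.61-fold dimmer on the 7.5 µM array than on the control array, after median scaling. Scaled on these spikes, the median of all genes moved to a log2 ratio of 0.75 at 15 µM and 0.60 at 7.5 µM. The folds reported here instead take each array's median probe set as the reference. Whether the shift on the spikes reflects total messenger RNA was not tested. For ACT1, the actin gene, signal at the 3' end over the 5' end, which reports on RNA integrity, was 1.63 on the control array, 1.80 at 7.5 µM and 1.47 at 15 µM. For SPT15, which encodes the TATA-binding protein, it was 3.30, 2.35 and 2.48, highest on the control array that both comparisons share. The part of RNA integrity in the results was not tested.

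The regulon genes separated into a majority that was brighter on both tomatidine arrays and a pair, PHO84 and VTC3, that was nearly level on all 3. At 15 µM, 6 of 9 probe sets were at least 2-fold higher than control and none was 2-fold lower. Over all 4724 genes compared, 2.73% were that much higher and 1.14% that much lower. At 7.5 µM, 5 of 9 were at least 2-fold higher and 0 lower, beside 1.97% and 0.614% of all genes. The median log2 ratio of the 9 was 1.02 at 15 µM and 1.21 at 7.5 µM, where the medians of all genes were -0.03 and -0.03. Both comparisons use the same control array, so they are not independent of each other, and a high or low control reading enters both. The plot of signals by gene shows each of these readings.

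**Figure D1:**
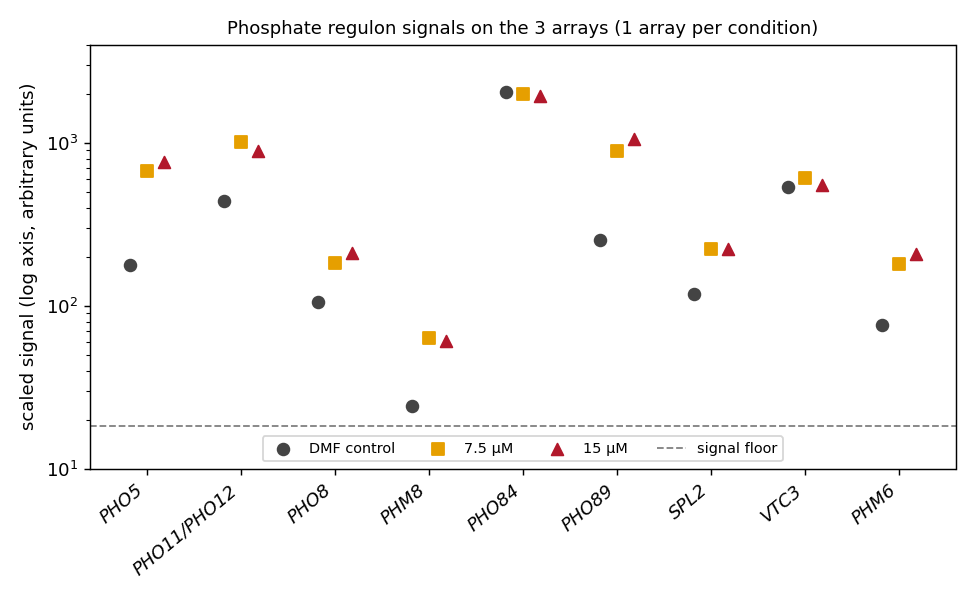
Scaled signal (log axis, arbitrary units) of the 9 phosphate regulon probe sets on the DMF control array (circles), the 7.5 µM tomatidine array (squares) and the 15 µM array (triangles), with the signal floor of 18.2 as a dashed line. In 7 probe sets both tomatidine arrays lie clearly above the control array, while in PHO84 and VTC3 the 3 readings nearly coincide.

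Among the phosphatases, PHO5 encodes the main secreted acid phosphatase, which frees phosphate from organic compounds outside the cell. Its scaled signal was 178 on the control array, 666 at 7.5 µM and 765 at 15 µM. Both tomatidine readings were far above the control and close to each other. PHO5 was 4.30-fold higher at 15 µM and 3.74-fold higher at 7.5 µM, which placed it at rank 22 and rank 10 among the genes compared, counted from the highest ratio. Its ratio between the doses was 1.15.

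PHO11 and PHO12 encode further secreted acid phosphatases that are near-identical copies, so their common probe set reports their sum. It read 436 on the control array, 1009 at 7.5 µM and 884 at 15 µM. The lower dose gave the brighter reading here, by 1.14-fold, and both lay above the control. The ratio to control was 2.31-fold at 7.5 µM and 2.03-fold at 15 µM, the second just past the 2-fold line. PHO5 itself is closely related to this pair and to PHO3, a constitutive acid phosphatase gene that lies next to PHO5 on the chromosome. How far their probes read each other's RNA was not tested.

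PHO3 went the other way. Its signal was 663 on the control array, 355 at 7.5 µM and 308 at 15 µM, so the control was the brightest of the 3. PHO3 was 2.15-fold lower at 15 µM and 1.86-fold lower at 7.5 µM, and only the first was called. The log2 ratios of PHO5 and PHO3 differed by 3.21 at 15 µM and by 2.80 at 7.5 µM. The 15 µM call ended with quantile normalisation (log2 ratio -0.97), lowess centring on signal (-0.98) and spike scaling (-0.27), while the sign stayed negative in all settings tried.

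PHO8 encodes the alkaline phosphatase of the vacuole. It read 106, 182 and 212 on the control, 7.5 µM and 15 µM arrays, in the order of the dose. At 15 µM it was 2.001-fold higher, on the 2-fold line itself, and at 7.5 µM 1.72-fold higher, which was not called. The log2 ratio at 15 µM of 1.001 dropped to 0.98 with quantile normalisation, so this call has no margin. PHO5 exceeded PHO8 by 1.10 log2 units at 15 µM and by 1.12 at 7.5 µM, more than the SD between probe sets of a gene.

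PHM8, a phosphatase gene whose product acts on nucleotides and lysophosphatidic acid, was read near the floor. Its signal was 24.2 on the control array, 63.7 at 7.5 µM and 60.7 at 15 µM. The tomatidine arrays were alike and above a control reading that stood just over the floor. The ratio was 2.64-fold at 7.5 µM and 2.51-fold at 15 µM. With the floor raised to the 60th percentile of signals, which lies above its control reading, the log2 ratios became 0.48 and 0.41 and neither was called.

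The high affinity transporters came apart. PHO84 encodes the main proton-coupled high affinity phosphate transporter, and PHO89 a sodium-coupled one that works best at alkaline pH. PHO89 read 253 on the control array, 887 at 7.5 µM and 1051 at 15 µM. It was 4.15-fold higher at 15 µM (rank 23) and 3.50-fold higher at 7.5 µM (rank 12), close to PHO5 in both orders.

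PHO84 read 2046 on the control array, 1983 at 7.5 µM and 1946 at 15 µM. The lowest and the highest reading were 1.05-fold apart. Its log2 ratio was -0.07 at 15 µM and -0.05 at 7.5 µM, and it turned positive with the values as deposited (0.03 at either dose), with quantile normalisation (0.18 and 0.21), with lowess centring on signal (0.21 and 0.22) and with spike scaling (0.76 and 0.64, where the median of all genes was 0.75 and 0.60). None of these values reached 2-fold. The brightest probe set read 4519 at 15 µM, 4570 at 7.5 µM and 5621 in the control, and whether the PHO84 probes had room to respond was not tested. The log2 ratio of PHO89 exceeded that of PHO84 by 2.12 at 15 µM and by 1.85 at 7.5 µM.

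SPL2 encodes a small protein that lowers low affinity phosphate transport when phosphate is scarce. It read 119 on the control array, 224 at 7.5 µM and 223 at 15 µM. The tomatidine arrays were indistinguishable and both were above the control, by 1.89-fold and 1.88-fold, below the 2-fold line. Its log2 ratio at 15 µM was 0.91, 0.09 below that of PHO8. That gap is smaller than the SD between probe sets of a gene, so the call on PHO8 and its absence on SPL2 do not set these genes apart. With the values as deposited, SPL2 reached 1.01 at 15 µM and was called.

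PHM6, whose product has no settled function, read 75.9 on the control array, 181 at 7.5 µM and 209 at 15 µM. Here too the tomatidine readings stood apart from the control and near each other. It was 2.75-fold higher at 15 µM and 2.38-fold higher at 7.5 µM, at ranks 45 and 38.

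VTC3 encodes a subunit of the vacuolar transporter chaperone complex, which makes polyphosphate. It read 537 on the control array, 605 at 7.5 µM and 551 at 15 µM. The highest reading was that of the lower dose, and the log2 ratios of 0.17 at 7.5 µM and 0.04 at 15 µM were within the SD between probe sets. PHO84 and VTC3 were the 2 of 9 probe sets within that SD at either dose, a range that held 67.0% of all genes at 15 µM and 63.1% at 7.5 µM. Unlike the 9 probe sets, some of all genes were under the floor on an array, and the floor draws their ratios towards 0.

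**Figure D2:**
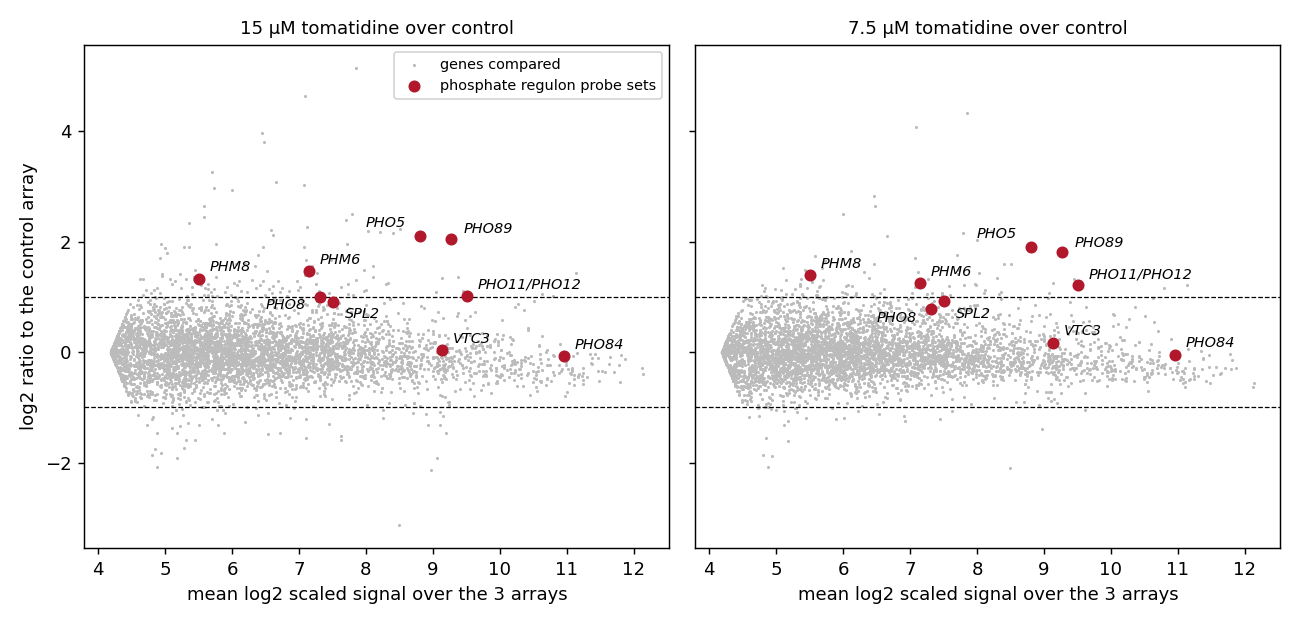
Log2 ratio to the control array against the mean log2 scaled signal over the 3 arrays, for 15 µM (left) and 7.5 µM tomatidine (right). Grey points are the 4724 genes compared, red points the 9 phosphate regulon probe sets, and dashed lines mark 2-fold. PHO5 and PHO89 lie above the upper 2-fold line at both doses, at log2 ratios of 2.10 and 2.05 for 15 µM, while PHO84 and VTC3 lie inside the grey cloud.

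The doses were then set against each other, a comparison without the control array. No regulon probe set differed 2-fold between 15 and 7.5 µM, beside 0.72% of all genes higher and 0.275% lower at 15 µM. All 9 log2 ratios were within the SD of 0.29 between probe sets of a gene, as were 67.5% of all genes. They ran from -0.19 for PHO11 and PHO12 to 0.24 for PHO89. PHO8 (0.22), PHM6 (0.21) and PHO5 (0.20) were the others above 0, and SPL2 (-0.01), PHO84 (-0.03), PHM8 (-0.07) and VTC3 (-0.14) lay below it. With spike scaling all but PHO11 and PHO12 (-0.04) were above 0, where the median of all genes was 0.14. No dose order within the regulon was resolved beyond that SD.

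A further 30 genes of phosphate handling were listed by role, 28 of them above the floor on 1 array or more. Compared with control, 2 of 28 were at least 2-fold higher and 1 lower at 15 µM, and 1 was higher and 0 lower at 7.5 µM. Over all genes the shares were 2.73% and 1.14% at 15 µM and 1.97% and 0.614% at 7.5 µM. Their median log2 ratios were 0.06 and -0.01. Between the doses 0 of 28 were called, beside 0.72% of all genes higher and 0.275% lower at 15 µM. Split by role the lists are short, and shares of this size would give few calls or none in each.

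In the signalling list none of 9 genes was called at either dose. PHO81, the inhibitor gene that is itself a Pho4 target, read 264 on the control array, 333 at 7.5 µM and 374 at 15 µM. It was the brighter the higher the dose, at 1.26-fold and 1.42-fold of control. PHO4 read 50.5, 52.3 and 46.0 and PHO85 123, 105 and 112 on the control, 7.5 µM and 15 µM arrays. Both had log2 ratios within the SD between probe sets. PHO80 read 33.1, 32.1 and 50.1, with a log2 ratio of 0.60 at 15 µM, and -0.05 at 7.5 µM, the second above 0 with the values as deposited and with spike scaling. PHO2 was near or below the floor, at 25.7, 7.10 and 18.8, so its ratios are hardly measured. The inositol pyrophosphate synthase genes VIP1 and KCS1, whose products make signal molecules read by the pathway, had log2 ratios of 0.81 and 0.50 at 15 µM and 0.50 and 0.25 at 7.5 µM. The next brightest probe set of VIP1 had 0.10 at 15 µM, unlike the first, and 0.50 at 7.5 µM, like it.

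Of the transport list 6 of 7 genes were measured and none was called. PHO87, a low affinity transporter gene, read 52.8 on the control array, 76.4 at 7.5 µM and 83.8 at 15 µM. The other low affinity transporter gene, PHO90, read 373, 335 and 284, and the vacuolar exporter gene PHO91 read 247, 183 and 181. PHO87 was thus highest at 15 µM and PHO90 and PHO91 highest in the control, with log2 ratios at 15 µM of 0.67, -0.39 and -0.45. With spike scaling all 3 were positive (1.503, 0.44 and 0.39), the last 2 below the median of all genes. GIT1, a glycerophosphoinositol transporter gene, was under the floor on all arrays.

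In the polyphosphate list none of 7 genes was called. VTC2 read 311 on the control array, 369 at 7.5 µM and 470 at 15 µM, VTC1 1528, 1408 and 1678, and VTC4, the polymerase subunit gene, 889, 994 and 1044. The other VTC4 probe set read 741, 695 and 647, the opposite order, and its log2 ratio at 15 µM was -0.20 against 0.23 for the brighter one. The largest log2 ratio of these at 15 µM was 0.59 for VTC2, and it exceeded that of VTC3 by 0.56. VTC5, a later named subunit gene, read 162, 103 and 83.3, with a log2 ratio of -0.96 at 15 µM. Its other probe sets were divided, since the next brightest gave 0.08 and a dim one, under the floor on both tomatidine arrays, -0.99 against that floor. The polyphosphatase gene PPN2 had a log2 ratio of 0.77 at 15 µM and 0.32 at 7.5 µM, while PPN1 had 0.04 and -0.33.

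A last list held 4 further Pho4 targets, and 3 of them had a signal above the floor. It is not a full set of targets. PHO81, also a Pho4 target, stood in the signalling list, and VTC1, VTC2 and VTC4, genes of polyphosphate synthesis, in the polyphosphate list. None of these was called, at log2 ratios at 15 µM of 0.50, 0.14, 0.59 and 0.23. HOR2, now GPP2, encodes a glycerol-phosphate phosphatase that is also known from the osmotic stress response. It read 58.9 on the control array, 160 at 7.5 µM and 285 at 15 µM. HOR2 was 4.83-fold higher at 15 µM and 2.72-fold higher at 7.5 µM, and its log2 ratio between the doses, 0.83, was outside the range of the regulon probe sets. GDE1, a glycerophosphocholine phosphodiesterase gene, read 48.7, 83.1 and 104, which is 2.14-fold higher at 15 µM and 1.70-fold at 7.5 µM. CTF19, a kinetochore gene next to VTC3, was above the floor only at 15 µM, at 21.5, and PHM7 was under the floor on all 3 arrays.

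**Figure D3:**
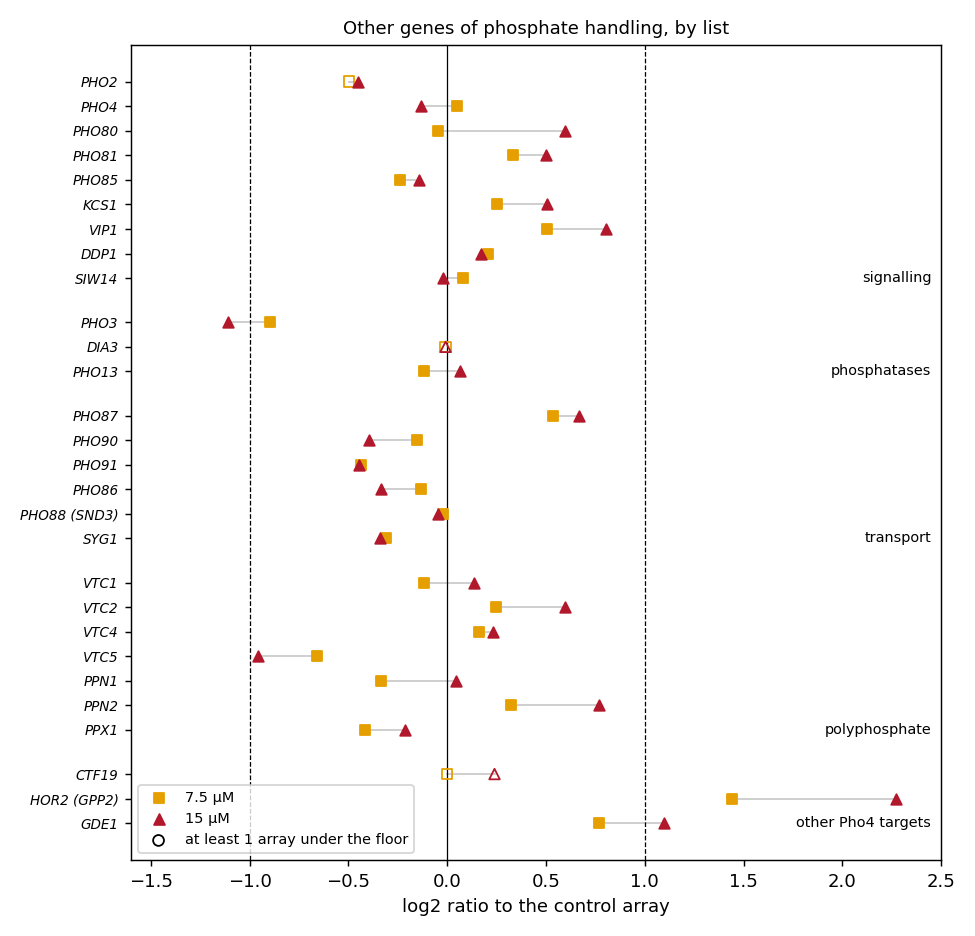
Log2 ratio to the control array of the 28 other phosphate handling genes with a signal above the floor on any array, for 7.5 µM (squares) and 15 µM tomatidine (triangles), grouped by list; open symbols have at least 1 of the compared arrays under the floor and dashed lines mark 2-fold. HOR2 (GPP2) and GDE1 pass the upper line at 15 µM, PHO3 the lower one, and the signalling, transport and polyphosphate genes lie between the lines.

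The 5 genes whose pair of log2 ratios to control lay nearest to those of PHO5, among non-member genes above the floor on all 3 arrays, were YDL124W, CYB5, ERG28, SCM4 and TIR3. Their distances from PHO5 ran from 0.29 log2 units for YDL124W, a reductase gene, and CYB5, the cytochrome b5 gene, to 0.32 for TIR3, a cell wall mannoprotein gene. This likeness rests on 3 arrays with a shared control and is a description.

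**Figure D4:**
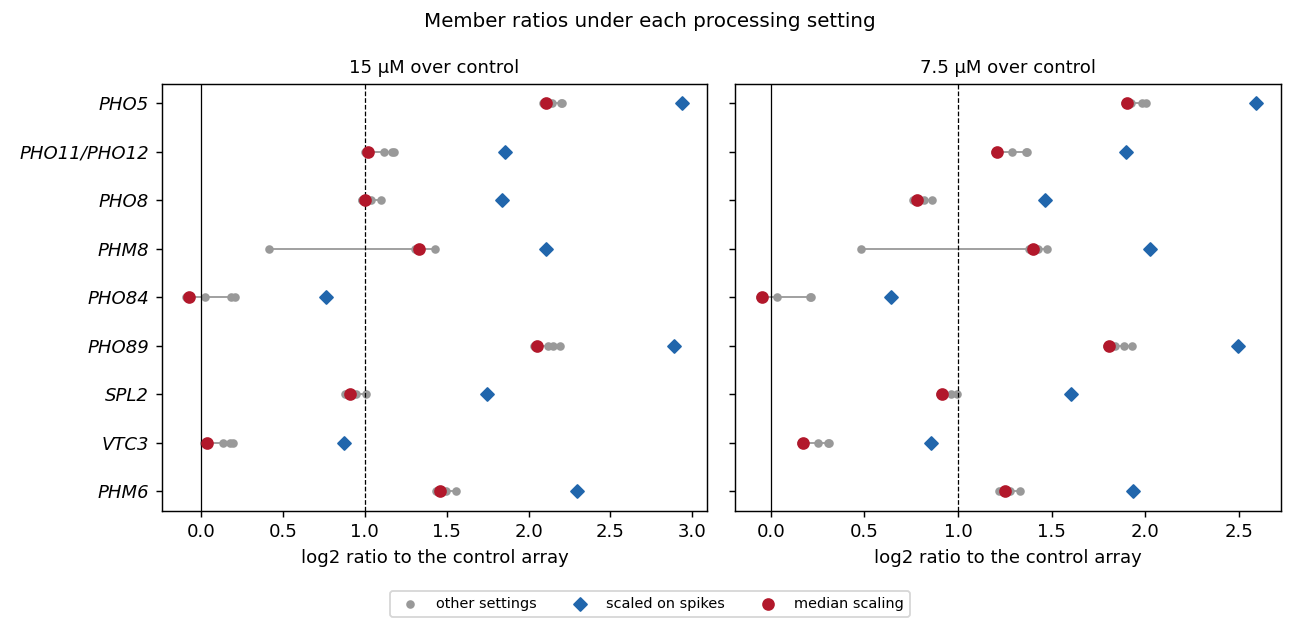
Log2 ratio to the control array of each phosphate regulon probe set with median scaling (red), with scaling on the spikes (blue diamonds) and under the other settings of scaling, floor and probe set choice (grey), for 15 µM (left) and 7.5 µM (right); the dashed line marks 2-fold. Spike scaling moved all 9 upwards, the 60th percentile floor took PHM8 below 2-fold, and PHO8 and SPL2 at 15 µM sit beside the line.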

How the data were processed

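The authors deposited a linear intensity for every probe set of each array. How they summarised, background-corrected and flagged the probes is not stated in the labels. The intensity values as deposited carry a global scaling: with the lowest and highest 2% trimmed, each array averaged 100.0. A change of total messenger RNA is hidden by that.

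The 60 control probe sets among 9335 were dropped. Symbols came from the given probe annotation, whose 6504 single-gene probe sets all carried an identifier found in the R64 gene table. That table was used for symbols and gene order only. The probe set of PHO11 and PHO12 stayed 1 unit, and the brightest of several probe sets was read for the other genes (5656 in all).

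Median scaling used factors of 0.974 (15 µM), 0.986 (7.5 µM) and 1.04 (control). Signals were floored at the 40th percentile and log2 transformed. The 4724 genes above the floor on at least 1 array were compared under the 2-fold rule. That rule was tried on simulated data with less noise than the SD between probe sets and with changes only in bright genes. Its error rate on these arrays was not tested. Named were all members, other listed phosphate genes at 2-fold or more, core signalling, low affinity transporter and VTC genes, and the 5 genes nearest PHO5; any further gene was named after its values were seen. Members and lists were chosen with earlier results of these data known.

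Tried as alternatives: deposited values, quantile normalisation, lowess centring (span 0.3), scaling on 8 spike probe sets, floors at the 20th or 60th percentile, a pseudocount (5th percentile) without floor, averaging a gene's probe sets, and 3-fold or 1.5-fold rules. Median scaling over the genes compared was an alternative chosen after seeing the data. Software was Python 3.11.15 with numpy 2.4.6, pandas 2.3.3 and statsmodels 0.14.6; plots used matplotlib 3.10.9.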

Additional observations from a re-analysis of the deposited data

How the results depend on the processing

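The count of regulon probe sets at least 2-fold higher was 5 to 7 at 15 µM and 4 to 7 at 7.5 µM under every alternative scaling, floor and probe set choice and the 1.5-fold rule, and it was 2 (PHO5 and PHO89) at both doses with the 3-fold rule. None was called lower, or called between the doses, under any setting. Spike scaling moved the median log2 ratio to 1.86 at 15 µM and 1.90 at 7.5 µM, and the median of all genes to 0.75 and 0.60. With it, the other phosphate genes counted 11 higher and 0 lower at 15 µM and 6 higher at 7.5 µM, where 797 of all genes were higher. The 3-fold rule left 1 of the other phosphate genes higher and 0 lower at 15 µM and 0 higher at 7.5 µM, where 19 of all genes were higher. The 1.5-fold rule gave 7 higher and 2 lower at 15 µM, 2 higher and 2 lower at 7.5 µM, and 2 higher at 15 µM than at 7.5 µM. Of all genes that rule called 406 higher and 247 lower at 7.5 µM, and 191 higher at 15 µM than at 7.5 µM. The call on PHO3 at 15 µM ended with quantile normalisation and lowess centring, leaving 0 lower in each. With the floor at the 20th percentile 1 was lower at 7.5 µM and 3 were higher between the doses, where 127 and 118 of all genes were. With no floor these counts were 1 and 1, where 65 and 75 of all genes were. PHO2 was in each of these counts of phosphate genes, from signals near or under the floor. The 20th percentile floor also gave 3 higher at 15 µM over control, beside 201 of all genes. For 15 µM over control, all genes called higher and lower numbered 129 and 54, against 1288 and 7 with spike scaling, 201 and 143 with the 20th and 85 and 27 with the 60th percentile floor, 38 and 11 at 3-fold and 390 and 326 at 1.5-fold. No paired analysis was possible because each condition had 1 array. The planned search of promoters for CACGTG and CACGTT was not run, for want of a sequence table. PHM8 and PHO2 are limited by signal near the floor, and differences between cultures cannot be told apart from those between conditions.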

Other observations

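Genes next to the 10 phosphate regulon genes on the chromosomes were read as a description of their surroundings. There were 19 such neighbours, 15 of them above the floor on at least 1 array. YHR214C-E and KRE29 were under the floor on all arrays, and YML122C and TYC1 had no probe set of their own. Relative to control none was at least 2-fold higher at either dose, and the median log2 ratio was -0.07 at 15 µM and -0.13 at 7.5 µM. At 15 µM 2 were lower, PHO3 beside PHO5 and ARO9 beside SPL2, and at 7.5 µM 1 was, ARO9. Over all genes compared, 2.73% were that much higher and 1.14% that much lower at 15 µM, and 1.97% and 0.614% at 7.5 µM. With so few neighbours, shares of that size would give few calls or none. ARO9 encodes an aromatic amino acid aminotransferase. It read 169 on the control array, 77.4 at 7.5 µM and 60.7 at 15 µM, and was 2.18-fold and 2.79-fold lower at 7.5 and 15 µM. ARO9 was singled out after its values were seen. PBY1 on the other side of PHO5 and YCK1 on the other side of SPL2 had log2 ratios of -0.17 and 0.11 at 15 µM.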
